A study of Drosophila melanogaster with 3 samples.

Results

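The genes described here encode neuronal wiring receptors of the immunoglobulin superfamily in the fly. They are 54 of the 13945 protein-coding genes on the 6 chromosome arms that hold peaks. A rule on gene symbols defined them, as 21 dpr genes, 11 DIP genes, 14 beat genes and 8 side genes. Earlier results of these data were known when these families were chosen, so the shares given below describe the families and test nothing. The positions of the transcription factor Deaf1 at these genes were taken from chromatin immunoprecipitation with sequencing (ChIP-seq). The material was whole Drosophila melanogaster embryos of both sexes, 0 to 24 hours old, from 1 transgenic line that stably expresses Deaf1 fused at its C terminus to green fluorescent protein, and the antibody was directed against that tag. All 3 biological replicates belong to this 1 group, so no conditions were compared. The sources used here do not say which promoter drives the fusion gene, and whole embryos do not separate neurons from other cells. The data hold no measure of expression, so the neuronal character of the genes rests on background knowledge.

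Dpr proteins (named for defective proboscis extension response) and DIPs (Dpr-interacting proteins) are cell-surface proteins with immunoglobulin domains that bind each other in selective pairs between neurons and their partner cells. Beat proteins (beaten path) bind Side proteins (sidestep) in a second such network: beat-Ia is secreted by motor neurons, and side is a transmembrane protein on muscle and other cells along which motor axons grow. Each family has many paralogs, and neighbouring neuron types express different subsets of them, which helps to set which cells form synapses. Deaf1 binds DNA through a SAND domain at sequences that contain TTCG.

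The strongest Deaf1 positions in each subfamily are shown first, because most results concern a single peak close to the transcription start site (TSS). Each line gives the summit, the highest point of the peak, with 50 bases on each side, 5′ to 3′ on the gene's own strand, read from the RefSeq copy of the dm6 genome. TTCG words on either strand are in capitals, so a word on the other strand reads CGAA. The last line is the weakest bound member, dpr6, added for contrast after the values were seen.
DIP-theta, chr2L:5658588-5658688, minus strand: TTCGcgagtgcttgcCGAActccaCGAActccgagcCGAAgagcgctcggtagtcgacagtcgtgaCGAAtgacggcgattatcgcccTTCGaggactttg
DIP-epsilon, chr2L:6411250-6411350, minus strand: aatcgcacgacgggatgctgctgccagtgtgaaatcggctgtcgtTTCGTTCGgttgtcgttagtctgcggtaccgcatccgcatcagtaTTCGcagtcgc
dpr10, chr3L:10186111-10186211, minus strand: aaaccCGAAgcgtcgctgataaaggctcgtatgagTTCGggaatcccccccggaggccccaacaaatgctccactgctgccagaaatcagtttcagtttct
dpr8, chrX:14322102-14322202, plus strand: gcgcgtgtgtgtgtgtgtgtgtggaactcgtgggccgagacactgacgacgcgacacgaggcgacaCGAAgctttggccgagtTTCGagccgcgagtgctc
beat-IIIc, chr2L:17260766-17260866, minus strand: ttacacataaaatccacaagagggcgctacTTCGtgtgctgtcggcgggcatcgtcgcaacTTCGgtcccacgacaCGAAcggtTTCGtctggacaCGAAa
beat-Ia, chr2L:16049843-16049943, plus strand: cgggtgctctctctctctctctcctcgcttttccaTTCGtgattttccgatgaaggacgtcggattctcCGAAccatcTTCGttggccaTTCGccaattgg
side-II, chr2L:14972327-14972427, minus strand: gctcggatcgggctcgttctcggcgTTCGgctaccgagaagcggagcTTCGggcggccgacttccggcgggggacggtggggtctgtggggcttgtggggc
side-VI, chr3R:10972289-10972389, plus strand: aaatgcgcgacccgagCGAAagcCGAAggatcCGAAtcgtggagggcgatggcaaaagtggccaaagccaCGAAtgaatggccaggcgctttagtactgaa
dpr6, chr3L:9974578-9974678, plus strand: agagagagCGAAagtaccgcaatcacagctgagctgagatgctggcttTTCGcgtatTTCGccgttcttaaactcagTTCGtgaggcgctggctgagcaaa

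These windows hold between 2 and 6 TTCG words each. DIP-theta has 6, 2 of them within the longer word TTCGG. The window of dpr10 has 2 TTCG words, both part of TTCGG, and that of side-II also has 2, both part of TTCGG, in a window that is 72.3% G and C. The dpr6 window has 4 TTCG words but 0 TTCGG words. Since the 9 windows were picked by the strength of their peaks, they cannot show how words and strength relate.

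Nearly all of the wiring receptor genes carried a Deaf1 peak at their start. A gene was called bound when a summit of the reproducible peak set (selected by the irreproducible discovery rate, IDR; 8667 summits) lay within 500 bp of an annotated TSS. By this rule 49 of the 54 members were bound (90.7%), against 27.8% of all protein-coding genes. The counts were 19 of 21 for dpr, 9 of 11 for DIP, 14 of 14 for beat and 7 of 8 for side. In the strongest 8667 peaks of each replicate taken alone, the count was 49 in each of the 3 replicates. The shares of all genes in those lists were 27.2%, 28.9% and 27.2%. Because the IDR set was derived from these replicates, the equal counts are not independent support.

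**Figure D1:**
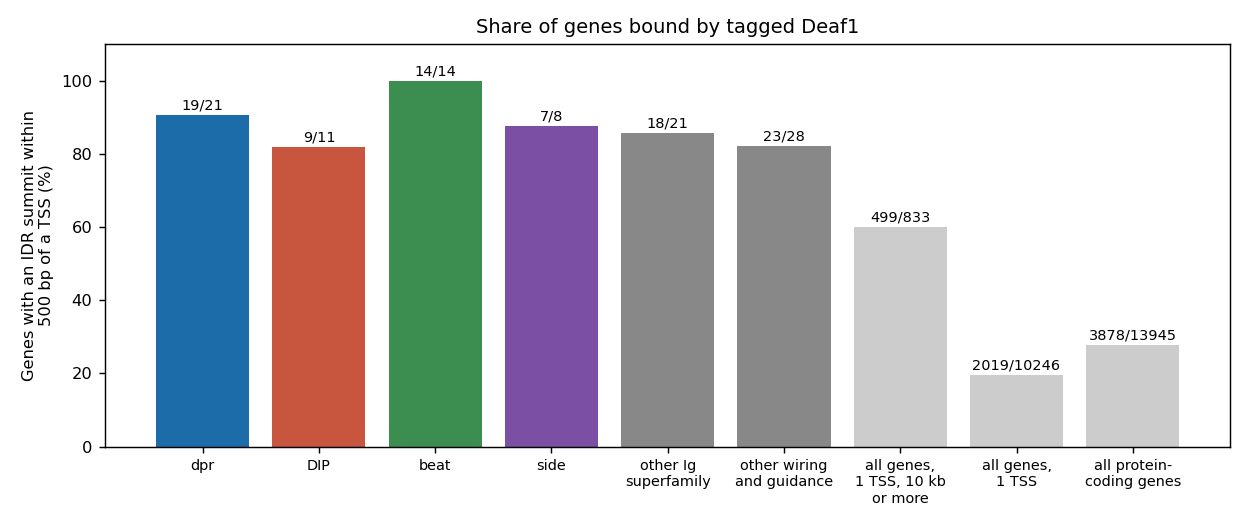
Share of genes with an IDR summit within 500 bp of a TSS, in percent, for the 4 subfamilies, 2 other gene lists, all genes with 1 TSS (with and without a minimum length of 10 kb) and all protein-coding genes; the fraction above each bar is bound genes over genes in the set. All 4 subfamilies stand above 80%, against 27.8% of all genes.

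The members are longer than most genes, and like most genes the majority have 1 annotated TSS. Their median length was 36.2 kb against 2.17 kb for all protein-coding genes. A single annotated TSS was present at 42 of the 54, and at 10246 of the 13945 protein-coding genes. Of those 42, 37 were bound (88.1%), against 19.7% of all genes with 1 TSS. All 12 members with 2 or 3 TSSs were bound, against 46.2% of genes with that number. Binding was commoner in long genes in general: 21.1% of genes under 10 kb, 67.1% of genes of 10 to 50 kb and 77.2% of genes of 50 kb or more were bound, and among members the counts were 7 of 10, 27 of 27 and 15 of 17. Among genes with 1 TSS and a length of 10 kb or more, 33 of 35 members were bound, against 59.9% of all such genes. Other long genes were thus also bound more often than genes in general.

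The 5 members without a promoter peak were DIP-iota, DIP-lambda, dpr7, dpr21 and side-VII, and none of them had a summit inside its gene body either. DIP-lambda (379.1 kb) and dpr21 (124.5 kb) lie at the start of 2R, on which the first summit in any of the 5 lists is at 5.68 Mb. The 58 genes that end before that point, these 2 among them, lie where the lists hold 0 peaks, so binding there could not be assessed. On chromosome 4, which holds dpr7, 8 of 80 genes were bound, and the nearest summit was 71.4 kb from the dpr7 TSS. The nearest IDR summit to side-VII was 27.8 kb from its TSS. For DIP-iota, a gene of 4.57 kb, the nearest was a strong summit (IDR signal 5902.7) lying 8.98 kb on the downstream side, beyond the gene. The 500 bp threshold divided the members cleanly: the strongest promoter summits farthest inside it lay 442 bp from the TSS at dpr14 and 426 bp at dpr4, the next at 166 bp, and the nearest summit outside it was the one at DIP-iota. The relaxed pooled list of 30000 peaks added 0 of the 5.

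The peaks at member promoters were strong as well as frequent. The deposited signal is the peak caller's own value, and within the IDR set it ran from 256.1 to 53701.2. With each bound gene represented by its strongest promoter summit, the median was 4353.1 over the 49 bound members, against 740.9 over all 3878 bound genes and 1224.6 over the 1358 bound genes of 10 kb or more. Of the 49, 48 lay above the median of all bound genes and 43 above their upper quartile of 1676.4. Promoter summits among the 866 strongest of the IDR set marked 36 of the 54 members (66.7%), against 4.59% of all genes. Members are not replicates of each other, so these are descriptions.

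**Figure D2:**
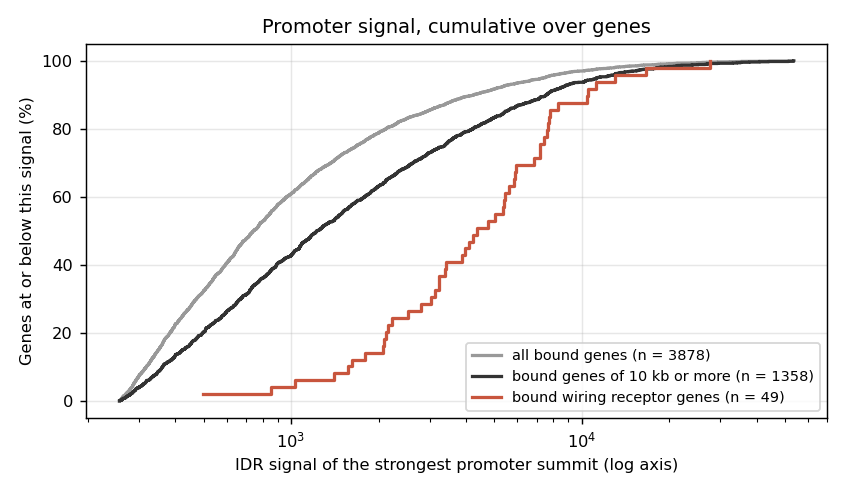
Cumulative percent of genes (vertical axis) at or below a given IDR signal of the strongest promoter summit (horizontal axis, log scale), for all bound genes, bound genes of 10 kb or more and bound wiring receptor genes. The curve of the wiring receptor genes lies to the right of both others over most of its range, with a median of 4353.1 against 740.9 and 1224.6.

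Levels in each replicate are given as relative signal, which sets a peak against the median of the 30000 peaks in that replicate's own list; those medians were 54.4, 52.7 and 41.1 in replicates 1, 2 and 3. A peak in every one of the 3 replicates covered each of the 49 promoter summits, as it did for 96.0% of all IDR summits. The median coefficient of variation over the replicates was 10.9%, and the order of the members was nearly the same in each pair of replicates (Spearman 0.987, 0.990 and 0.983 over 49 genes, a description of genes that share their libraries). In no replicate did the replicate summit lie more than 66 bp from the IDR summit.

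**Figure D3:**
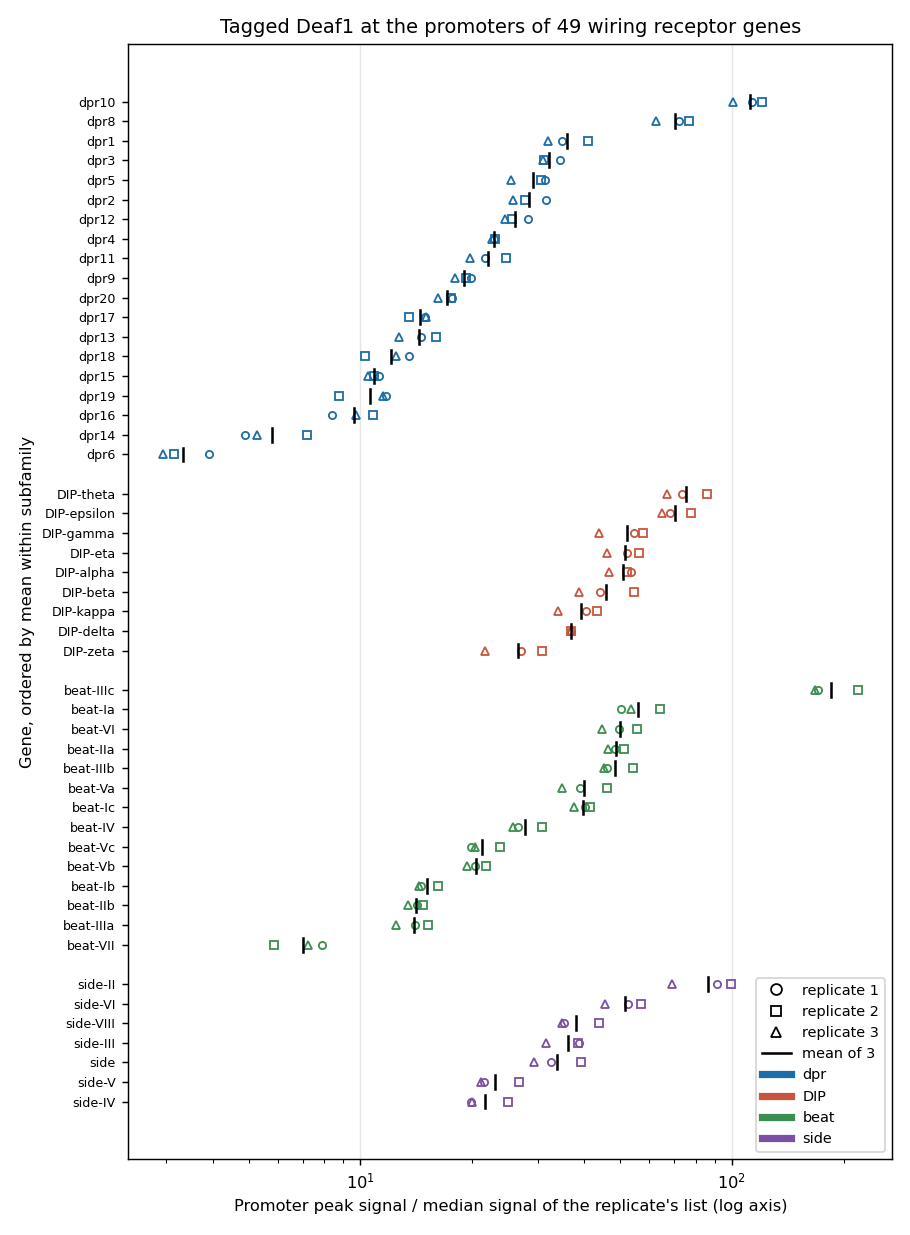
Relative promoter signal of the 49 bound members (horizontal axis, log scale; vertical axis, genes ordered by mean within subfamily), with 1 open symbol per replicate and a black bar at the mean. The values run from 185.6 at beat-IIIc to 3.33 at dpr6, and the dpr genes spread more widely than the DIP genes.

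The DIP genes, which encode the receptors that Dpr proteins bind, had the highest promoters as a group. The median relative signal of the 9 bound DIP genes was 52.1, 54.4 and 44.0 in replicates 1, 2 and 3 (50.2 ± 5.48, SD, n = 3), and the 19 bound dpr genes had 19.8, 19.2 and 18.0. The ratio of these medians was 2.63 ± 0.191 (SD, n = 3) and was above 1 in each replicate. All 9 bound DIP genes had a promoter summit among the strongest 866, and 10 of the 19 bound dpr genes did, where the share was 73.5% of bound members and 16.5% of all bound genes.

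DIP-theta (FBgn0051646) had the strongest promoter of the subfamily, with 73.5, 85.7 and 66.9 times the list median (75.4 ± 9.55, SD, n = 3) at a summit -78 bp from its TSS (negative is upstream). DIP-epsilon followed with 68.4, 77.7 and 64.7 (70.3 ± 6.70, SD, n = 3), and its summit lay 26 bp downstream of the TSS. The gap between these 2 genes was smaller than the SD of either, but DIP-theta was higher in each replicate. DIP-gamma, which acts in the pairing of R7 photoreceptors with their target neurons, had 54.6, 57.6 and 44.0 (52.1 ± 7.17, SD, n = 3). DIP-eta, which lies near DIP-theta on 2L, had 52.1, 56.4 and 46.0 (51.5 ± 5.24, SD, n = 3). DIP-alpha, which acts in the choice of muscle by motor neurons and of layers by optic lobe neurons, had 53.5, 52.3 and 46.6 (50.8 ± 3.69, SD, n = 3). The ranges of DIP-gamma, DIP-eta and DIP-alpha lie within each other. DIP-beta had 44.2, 54.4 and 38.7 (45.8 ± 7.95, SD, n = 3), and the remaining bound DIP genes went down through DIP-kappa and DIP-delta to DIP-zeta at 26.5 ± 4.66 (SD, n = 3). DIP-theta was highest and DIP-zeta lowest of the subfamily in each of the 3 replicates, 2.84-fold apart in their means. DIP-alpha was bound at the TSS inside its gene and not at its most upstream TSS.

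The dpr genes, which encode the partners of the DIPs, spread over a 33.5-fold range, with dpr10 highest and dpr6 lowest in each of the 3 replicates. At dpr10 (FBgn0052057), a DIP-alpha partner expressed in muscle and optic lobe neurons, the relative signal was 113.4 and 120.9 in replicates 1 and 2 and lowest in replicate 3 (deposited signal 4152.4), for a mean of 111.8 ± 10.1 (SD, n = 3). At dpr8 it was 71.9, 76.9 and 62.5 (70.4 ± 7.33, SD, n = 3). These 2 promoters stood apart from the rest of the family, whose values do not overlap theirs. At dpr1, the founding member, named for the response of the proboscis to salt, the values were 34.9, 41.1 and 32.0 (36.0 ± 4.66, SD, n = 3). At dpr3 they were 34.5, 31.3 and 31.0 (32.3 ± 1.94, SD, n = 3), and at dpr5 they were 31.5, 30.6 and 25.5 (29.2 ± 3.22, SD, n = 3). From dpr1 to dpr5 each gene lies within the larger SD of its neighbour in the family, although dpr1 exceeded dpr3 and dpr3 exceeded dpr5 in each replicate, and dpr2 came next at 28.4 ± 3.03 (SD, n = 3). Most other bound dpr genes lay between 26.1 at dpr12 and 9.62 at dpr16. At the foot of the family stood dpr14, at 4.88, 7.16 and 5.27 (5.77 ± 1.22, SD, n = 3), whose strongest summit also lies within 500 bp of a TSS of spidey, and dpr6, at 3.92, 3.14 and 2.94 (3.33 ± 0.518, SD, n = 3).

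The beat genes were all bound and held the strongest peak of any member. At beat-IIIc (FBgn0032629; 2L from 17187637 to 17260734) the summit lay -82 bp from the TSS, in a peak from 17260277 to 17261373, and its signal ranked 16 among all 8667 IDR summits. Its relative signal was 170.3, 218.4 and 168.0 (185.6 ± 28.4, SD, n = 3), above the values of every other member in each replicate and 1.66 ± 0.152 times that of dpr10 (SD, n = 3). The next beat gene, beat-Ia, which encodes a secreted factor that lets motor axons leave their bundle, had 50.2, 64.2 and 53.5 (56.0 ± 7.33, SD, n = 3). It was followed by beat-VI with 49.7, 55.5 and 44.7 (SD 5.39, n = 3). Next were beat-IIa with 48.6, 51.2 and 46.3 (48.7 ± 2.41, SD, n = 3) and beat-IIIb with 46.2, 54.2 and 45.2 (48.5 ± 4.96, SD, n = 3). Those 4 genes overlap in their replicate values, while beat-IIIc overlaps none of them. The lowest beat promoter was that of beat-VII, with 7.88, 5.86 and 7.21 (6.99 ± 1.03, SD, n = 3), lowest of the subfamily in each replicate.

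The side genes, which encode the transmembrane partners of Beat proteins, were bound at 7 of 8, and all 7 had a promoter summit among the strongest 866, against the 16.5% of all bound genes. The highest was side-II, with 91.0, 99.6 and 69.0 (86.5 ± 15.8, SD, n = 3), at a summit -77 bp from its TSS. Next came side-VI with 52.5, 56.9 and 45.7 (51.7 ± 5.63, SD, n = 3). The replicate values of side-II lie above all those of side-VI. Then side-VIII had 35.3, 44.0 and 34.8 (38.0 ± 5.18, SD, n = 3), and side-III had 38.9, 38.5 and 31.6 (36.3 ± 4.14, SD, n = 3). The founding gene side had 32.7, 39.2 and 29.4 (33.8 ± 5.01, SD, n = 3), and the gaps between these 3 genes were smaller than the larger SD, although side-VIII exceeded side in each replicate. The lowest were side-V at 23.1 ± 3.19 and side-IV at 21.6 ± 2.88 (SD, n = 3 each). The medians of the side and beat subfamilies were close, at a ratio of 1.07 ± 0.0242 (SD, n = 3).

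Across all 49 bound members, the gap between a gene and the next in the order was larger than the SD of both in only 9 of 48 neighbouring pairs. The breaks at the top were those below beat-IIIc, below dpr10 and below DIP-epsilon. Between beat-Ia at place 7 and beat-Vb at place 35 no gap was larger than both SDs. All genes were measured in the same 3 replicates, so this SD also holds what the replicates share. Compared within replicates, the higher gene of the pair was higher in all 3 replicates for 13 of the 48 neighbouring pairs, and for 3 of the 28 between places 7 and 35 (DIP-beta over beat-Va, dpr1 over side and dpr3 over dpr5).

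For 11 pairs of genes whose proteins are known to bind each other, the promoter levels of the partners were compared within each replicate. None of the 5 unbound members is in these pairs, so that both partners were bound says no more than the members' own share of 90.7%. DIP-alpha binds both dpr6 and dpr10. Its relative signal was 0.455 ± 0.0201 times that of dpr10 and 15.4 ± 1.56 times that of dpr6 (SD, n = 3 each). The neighbours dpr6 and dpr10 lie tail to tail on 3L with 8.09 kb and 0 protein-coding genes between them, and the dpr10 promoter had 28.9, 38.5 and 34.3 times the relative signal of dpr6 in replicates 1, 2 and 3. The partner of DIP-gamma is dpr11, which R7 photoreceptors use and whose promoter had 21.7, 24.6 and 19.7, so that DIP-gamma stood at 2.36 ± 0.144 times dpr11 (SD, n = 3). DIP-delta, with 37.0, 37.0 and 36.9, stood at 1.42 ± 0.0991 times dpr12, with 28.3, 25.6 and 24.5 (SD, n = 3), a pair known from the mushroom body. Both DIP genes were above their partner in each replicate. In the second network, beat-Ia stood at 1.66 ± 0.144 times its partner side and beat-VI at 0.584 ± 0.0559 times side-II (SD, n = 3 each). The side-IV promoter had 19.9, 24.9 and 20.0 and that of beat-IIb 14.2, 14.7 and 13.4. The side-IV partners lay on either side of it, with beat-IIa at 2.27 ± 0.200 times and beat-IIb at 0.659 ± 0.0630 times side-IV (SD, n = 3 each). The replicate values were 39.0, 46.0 and 34.9 at beat-Va, 20.3, 21.8 and 19.4 at beat-Vb and 19.8, 23.7 and 20.4 at beat-Vc. The 3 beat-V genes were all below their partner side-VI, at 0.772 ± 0.0335 for beat-Va, 0.398 ± 0.0235 for beat-Vb and 0.413 ± 0.0352 for beat-Vc (SD, n = 3 each).

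Several paralogs lie near each other in the genome, most of them with other genes in between. Their promoters were bound separately and to different levels. On 2L, beat-IIIc had 13.3 ± 1.14 times the relative signal of beat-IIIa and 3.81 ± 0.188 times that of beat-IIIb (SD, n = 3 each). The genes beat-IIIa and beat-IIIc lie tail to tail with 14.5 kb between their ends. Their TSSs, at 17131024 and 17260734, are much farther apart than that. In the beat-I cluster on the same arm, beat-Ia stood at 3.71 ± 0.264 times beat-Ib and 1.41 ± 0.152 times beat-Ic (SD, n = 3 each). On 3R, beat-IIa stood at 3.45 ± 0.0277 times beat-IIb (SD, n = 3). Other nearby pairs were closer in level, with DIP-theta at 1.46 ± 0.0545 times DIP-eta, dpr17 at 1.33 ± 0.0991 times dpr15 and dpr5 at 1.28 ± 0.132 times dpr4 (SD, n = 3 each).

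Summits lay close to the TSS, most of them upstream of it. Of the 49 strongest promoter summits, 40 lay upstream (81.6%, against 72.5% of all bound genes and 76.9% of those with 1 TSS), 2 lay on the TSS itself (dpr13 and dpr20) and 7 lay downstream, none farther than the 108 bp of beat-Ic. The median position was -66 bp, almost the same as the -67 bp of all bound genes, but the spread was narrower: 45 of the 49 (91.8%) lay within 150 bp of the TSS, against 68.8% of all bound genes, 65.8% of those with 1 TSS and 74.6% of those of 10 kb or more. The exceptions were beat-VII and dpr16, at -166 and -161 bp, and dpr4 and dpr14. Only 4 of the 49 summits (8.16%) also lay within 500 bp of a TSS of another protein-coding gene, those of dpr14, beat-IV, beat-IIb and beat-IIIa, against 33.1% among all bound genes and 13.5% among those of 10 kb or more. A single promoter summit was present at 46 of the 49 (93.9%), against 74.6% of all bound genes and 87.6% of those with 1 TSS.

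**Figure D4:**
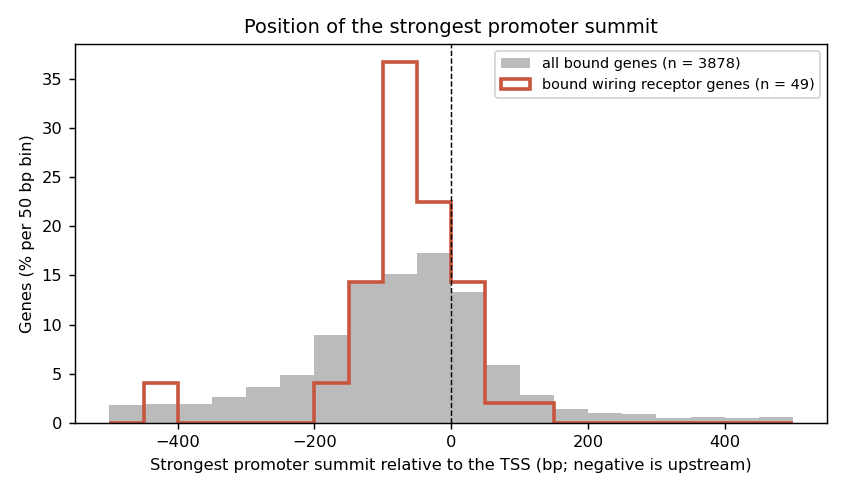
Position of the strongest promoter summit relative to the nearest TSS of its gene (horizontal axis in bp, negative upstream), as percent of genes per 50 bp bin, for all bound genes (filled) and bound wiring receptor genes (line). Of the 49 wiring receptor genes, 45 lie within 150 bp of the TSS, and the 2 most distant are dpr14 and dpr4.

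Inside these long genes Deaf1 summits were sparse. A summit anywhere in the gene body was present in 25 of the 54 members, against 18.5% of all genes, and a summit over 500 bp from any TSS in 13 of 54, against 9.42%. Per length the order was the other way round. The members held 36 body summits in 2521.5 kb, or 1.43 per 100 kb, against 6.21 per 100 kb in all genes of 10 kb or more. Away from any TSS the figures were 0.912 and 3.78 per 100 kb. The members and these longer genes were not matched, with median lengths of 36.2 and 20.6 kb and medians of 1 and 2 TSSs. Without DIP-lambda and dpr21, which lie beyond the reach of the lists, the members held 1.78 summits per 100 kb. By subfamily the density was 1.01 per 100 kb in dpr, 1.02 in DIP, 1.20 in side and 2.86 in beat, and 7 of the 15 beat summits lay in beat-Ib.

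**Figure D5:**
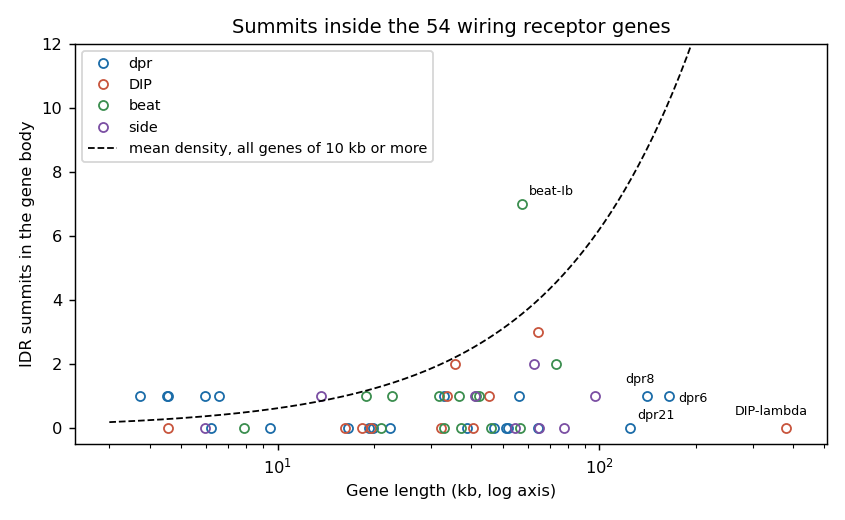
Number of IDR summits in the gene body (vertical axis) against gene length in kb (horizontal axis, log scale), 1 circle per member; the dashed line is the mean density of all genes of 10 kb or more, 6.21 per 100 kb. Apart from beat-Ib with 7 summits, the members over 50 kb lie below the line.

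The exception was beat-Ib, whose 7 body summits lie between 48.5 and 53.4 kb downstream of its own TSS and 2949 bp or more from any protein-coding TSS. Their nearest TSSs belong to other genes, CG13244 and CG31821, and some of the 7 share a peak interval. The summit at position 15910119 had relative signals of 2.52, 0.487 and 2.80, below the list median in replicate 2. The strongest of the 7, at position 15913939 on 2L, had an IDR signal of 1557.3 and 3 TTCGG words. Its relative signal was 10.1 and 9.91 in replicates 1 and 2 and higher in replicate 3. In each replicate it lay below the 14.6, 16.2 and 14.4 of the beat-Ib promoter. The 23 summits of all members over 500 bp from any TSS, beat-Ib included, were weaker than most promoter summits: they had a median signal of 412.9, and 8 of them held TTCGG. The median over all IDR summits was 533.6. Neither value was computed for such summits in other genes, so nothing particular to the members is shown. Next in number were DIP-alpha with 3 body summits, 1 of them the peak at its internal TSS, and DIP-beta, beat-IIIc and side with 2 each. Only at dpr6 was such a summit stronger than the promoter summit. It lay in the gene 59.0 kb downstream of the TSS, with a signal of 934.0 against 496.2 at the promoter, and relative signals of 5.89, 6.30 and 6.86.

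Most member promoters held Deaf1 words at the summit. TTCG was sought on both strands within 50 bp of the summit and stood at 44 of the 49 summits (89.8%), against 70.8% of the 3262 summits that are the strongest at any bound gene. TTCGG, which contains TTCG, stood at 25 of 49 against 32.7%. Among summits that rank in the strongest 866, TTCGG was at 63.9% of the 36 member summits and at 59.1% of the 569 summits of other genes, and 2 or more TTCGG words were at 22.2% and 30.6%. Below that rank TTCGG was at 2 of 13 member summits and at 26.7% of 2644 others. Split in the same way, TTCG was at 94.4% of member summits and 86.8% of others among the strongest 866. Below that rank it was at 10 of 13 and 67.1%. The median share of G and C in these windows was 53.5% over the 49 members and 48.5% over the 3262 summits. None of these differences was tested. By subfamily TTCGG was at 7 of 9 DIP summits, 9 of 14 beat, 7 of 19 dpr and 2 of 7 side summits. The most TTCG words, 6 each, were at DIP-theta and DIP-delta, and DIP-delta alone had 3 TTCGG words. Members with 0 TTCGG words had a median IDR signal of 3232.6 (24 genes), those with 1 word 6375.9 (16 genes) and those with 2 words 7632.6 (8 genes), while DIP-delta with 3 words had 5461.8. The 5 summits without TTCG were those of dpr2, dpr14, dpr17, dpr18 and side, of which side (33.8 ± 5.01, SD, n = 3) and dpr2 (28.4 ± 3.03, SD, n = 3) were still strong. In these 2 windows the letters TTCG are simply not present, and nothing follows from that about the factor.

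Other wiring genes had comparable shares with the 500 bp window and the full IDR set. From a list of 21 further immunoglobulin superfamily genes, 18 were bound (85.7%), and from 28 other guidance and adhesion genes, 23 were bound (82.1%). Under stricter rules both lists lost more genes than the members, except that at 250 bp the second list lost only as many. The counts were 13 and 18 with the 4333 strongest IDR summits, 15 and 20 with only the most upstream TSS, and 16 and 22 at 250 bp. The members kept 48 of 54 under each of these rules. The bound genes of the first list had a median IDR signal of 1885.5 and those of the second 5921.6, below and above the 4353.1 of the members. Among the immunoglobulin genes, Fas3, a homophilic adhesion molecule, reached 87.2 ± 11.3 and klg 83.0 ± 11.8 times the list median (SD, n = 3 each), close to side-II. Dscam2, Dscam3, Dscam4, Fas2 and ed had between 2.30 and 3.29, below the mean of dpr6, the lowest member. Dscam1, Lac and wrapper were not bound. In the second list the highest was robo2 at 295.1 ± 43.6 (SD, n = 3), above beat-IIIc, and Sema1b, PlexA, PlexB, Ptp69D and CadN2 were not bound.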

How the data were processed

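Deaf1 ChIP-seq peak lists on dm6 were used. Per the text deposited with each sample, the authors called peaks on each of the 3 replicates and on their pooled alignments, against 1 control alignment, and derived the optimal IDR set from these lists; the sources used here do not name the caller, the aligner or the IDR threshold. Only the deposited peak signal, the caller's value per peak, was used, and it is not scaled between lists. Read depth is unknown, so no counting intervals are given.

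Genes and TSSs came from Ensembl release 115 (19607 TSSs) and sequence from RefSeq. Where several replicate peaks held an IDR summit, the peak with the nearest summit was taken; the SD covers 3 replicates. Scripts (Python 3.11.15, numpy 2.4.6, pandas 2.3.3, scipy 1.17.1) were tested on simulated data. With 1 group, no test was run. Members, lists and pairs were chosen with earlier results of these data known. Replicate values were given for the 5 strongest bound members per subfamily, the 5 with most body summits and the listed pairs; sequences for the 2 strongest per subfamily, arm 2R left out. Others named were chosen after their values were seen.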

Additional observations from a re-analysis of the deposited data

How the results depend on the processing

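The count of 49 bound members stayed between 48 and 49 under each alternative tried. It was 48 with a window of 250 bp (dpr4 lost), with only the most upstream TSS (DIP-alpha lost) and with the 4333 strongest IDR summits (dpr6 lost), and 49 with 1000 bp, with the relaxed pooled list, with peak intervals, with each summit given to its nearest gene, with RefSeq TSSs (identical at all 54 members; chosen after seeing the data), in all 3 replicates' top lists together, and without each replicate in turn. The subfamily counts moved by at most 1. The share of all genes bound at a promoter ranged from 18.0% to 39.6% over the same settings. The count of members with a body summit moved more: 15 with the 4333 strongest summits, 13 over 500 bp from any TSS, and 18 to 21 with 1 replicate left out. Over all genes a body summit was present in 18.5%, and 1 over 500 bp from any TSS in 9.42%. That share was not computed for the other body settings. The median over bound members of the mean relative signal was 29.2, and dividing by the median of the top list instead gave 7.60 with the same order of members; with 1 replicate left out it was 28.3 to 31.1. TTCGG was at 15 member summits within 25 bp (30.6%) and at 34 within 100 bp (69.4%), widths added after seeing the data. At the strongest promoter summits of all bound genes the shares were 20.3% and 47.7%. No paired analysis was possible because the series has 1 group, with no samples to pair across groups; ratios between genes were taken within replicates. What read depth limits could not be assessed from peak lists.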

Other observations

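The word GAGAG, bound by the GAGA factor, stood within 50 bp of 10 of the 49 member summits (20.4%), against 21.9% of the strongest promoter summits of all bound genes. By subfamily it was at 6 of 14 beat summits, 1 of 19 dpr summits, 1 of 9 DIP summits and 2 of 7 side summits, and no difference between subfamilies was tested. The most GAGAG words, 7 with overlapping matches counted, were at beat-Ia. They all lie in an unbroken run of alternating C and T in the window printed above.

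Replicate 2 gave the highest relative signal at 34 of the 49 bound members and replicate 3 the lowest at 40. Among the 605 strongest promoter summits of all bound genes, replicate 2 was highest at 55.5% and replicate 3 lowest at 65.0%. Across the 49 bound members, mean relative signal had a Spearman correlation of 0.373 with gene length, 0.463 with the number of TTCGG words and 0.325 with the number of TTCG words, all descriptions over genes that share their libraries.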
